A study of Homo sapiens with 39 samples.

Results

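The 10 genes described here belong to the HSP90, HSP60, HSP40 and small heat shock protein systems. They were taken by symbol from a table of 57773 gene identifiers, and all 10 were found, as 1 identifier each. They are HSP90AA1 (ENSG00000080824), HSP90AB1 (ENSG00000096384), STIP1, CHORDC1, DNAJB1 (ENSG00000132002), DNAJA1, HSPB1, HSPD1, HSPE1 and SERPINH1. RNA was sequenced from JJN3, an established human multiple myeloma line, in 39 libraries, 3 in each of 13 groups. The groups are untreated cells at the start (T0) and cells exposed to DMSO, to GSK-J4 or to ZnSO4 for 1, 3, 6 or 24 h. GSK-J4 is an inhibitor of the KDM6 histone demethylases, ZnSO4 is a zinc salt, and no dose is stated in the labels. All groups are the same line, with no genetic change named in the labels, so every result below is for 1 line.

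Chaperones hold unfolded proteins and help them fold. HSP90 proteins are ATP-driven dimers that finish the folding of kinases, receptors and other clients, HSP40 (DNAJ) proteins deliver unfolded proteins to HSP70, HSP60 with its lid HSP10 forms the folding chamber of the mitochondrial matrix, and small heat shock proteins bind unfolding proteins without ATP. Many of their genes are transcribed by heat shock factor 1 (HSF1), which binds heat shock elements, arrays of the short unit GAA in alternating orientation. Plasma cells and myeloma cells make large amounts of antibody protein and are known to depend on protein folding and degradation.

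The promoters are shown first, and the part of their motifs in any change described below was not tested. The RefSeq table used here (GRCh38.p14) held 18 starts for the 10 genes, and the 250 bases before each start were searched on both strands for the unit pairs GAANNTTC and TTCNNGAA and for an element of 3 units. The latter is GAANNTTC followed after any 2 bases by GAA, or TTCNNGAA followed likewise by TTC, so it contains the pairs. The 3-unit element was found for 5 of the 10 genes, HSP90AA1, HSP90AB1, CHORDC1, HSPD1 and SERPINH1, and in 0.441% of all 35116 promoters (0.557% of 27305 genes). A gene was counted if any of its starts matched, so genes with more listed starts had more windows to match in. CHORDC1 has 1 listed start, and in the other 4 genes only 1 of several starts held the element. GAANNTTC was found for 8 of the 10 and for 7.05% of all genes (5.78% of promoters). TTCNNGAA was found for 5 of the 10 and for 8.12% of all genes (6.62% of promoters). The sequences of those 5 genes and of DNAJB1, which had the largest change at 1 h, follow 5′ to 3′, ending at the base before the start, with matches to any of these letters in capitals. They lie at chr19:14518398-14518647, minus strand (DNAJB1), chr14:102087045-102087294, minus strand (HSP90AA1), chr6:44247693-44247942, plus strand (HSP90AB1), chr11:90223050-90223299, minus strand (CHORDC1), chr2:197499841-197500090, minus strand (HSPD1) and chr11:75562003-75562252, plus strand (SERPINH1).
DNAJB1: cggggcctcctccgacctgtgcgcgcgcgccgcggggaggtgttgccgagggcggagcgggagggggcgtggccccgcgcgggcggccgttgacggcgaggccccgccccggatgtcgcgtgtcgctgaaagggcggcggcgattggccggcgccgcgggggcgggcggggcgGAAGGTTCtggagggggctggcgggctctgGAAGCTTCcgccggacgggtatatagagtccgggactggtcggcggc
HSP90AA1: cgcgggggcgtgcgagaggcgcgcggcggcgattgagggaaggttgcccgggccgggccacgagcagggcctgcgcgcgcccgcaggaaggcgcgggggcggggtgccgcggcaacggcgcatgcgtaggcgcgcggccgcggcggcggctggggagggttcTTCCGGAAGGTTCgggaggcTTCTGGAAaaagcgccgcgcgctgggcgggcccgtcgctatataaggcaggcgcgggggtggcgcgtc
HSP90AB1: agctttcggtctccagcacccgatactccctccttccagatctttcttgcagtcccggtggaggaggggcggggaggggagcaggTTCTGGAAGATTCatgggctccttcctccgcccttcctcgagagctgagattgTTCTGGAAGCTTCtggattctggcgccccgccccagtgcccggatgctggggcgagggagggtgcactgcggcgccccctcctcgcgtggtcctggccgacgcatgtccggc
CHORDC1: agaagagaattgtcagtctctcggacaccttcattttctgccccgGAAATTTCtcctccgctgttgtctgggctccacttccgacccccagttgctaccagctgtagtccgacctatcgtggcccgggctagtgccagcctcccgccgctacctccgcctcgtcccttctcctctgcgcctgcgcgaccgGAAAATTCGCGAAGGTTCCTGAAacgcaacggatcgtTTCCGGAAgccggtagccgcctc
HSPD1: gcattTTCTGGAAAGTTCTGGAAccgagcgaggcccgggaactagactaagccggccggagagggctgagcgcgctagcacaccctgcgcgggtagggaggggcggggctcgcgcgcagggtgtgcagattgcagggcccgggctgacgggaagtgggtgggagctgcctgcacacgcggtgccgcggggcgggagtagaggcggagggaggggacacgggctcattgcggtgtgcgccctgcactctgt
SERPINH1: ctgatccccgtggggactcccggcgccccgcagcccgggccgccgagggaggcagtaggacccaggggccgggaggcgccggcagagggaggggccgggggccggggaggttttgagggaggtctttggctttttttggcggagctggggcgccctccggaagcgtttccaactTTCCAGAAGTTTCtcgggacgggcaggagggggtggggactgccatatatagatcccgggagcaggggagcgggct
Counting the base before the start as -1, the 3-unit element of HSP90AA1 began at -88 and that of SERPINH1 at -76. HSP90AB1 held the element at -165 and -112, and CHORDC1 held 3 overlapping matches from -60 to -50. DNAJB1 held no 3-unit match but a pair of GAANNTTC matches at -77 and -47. DNAJA1 had 1 GAANNTTC match, at -198, and HSPB1 had 1, at -182, while none of these letters stood in the windows of STIP1 or HSPE1. HSPD1 and HSPE1 are neighbours that face away from each other, with starts at 197500274 and 197500379 on chromosome 2, 105 bases apart. The 2 HSPD1 elements, at -245 and -240, belong to its second listed start, which lies inside the gene body of the first. These elements also lie upstream of the HSPE1 start, but outside the HSPE1 window. The HSPD1 window that holds them ends at 197500090 and that of HSPE1 begins at 197500129. Among the other motifs searched, the metal response core is written TGCACNC in one form and TGCGCNC in the other. It was found for 7 of the 10 genes and for 28.5% of all genes (24.8% of promoters). The ATF4/CHOP core TGATGNAA was found for 0 of the 10 and for 3.89% of all genes (3.14% of promoters). The antioxidant response core TGACNNNGC was found for 1, HSP90AB1, and for 13.2% of all genes (10.9% of promoters). These are letter matches only, and which of several starts JJN3 cells use was not measured.

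Libraries held 4347745 to 10695671 counts (median 6010529), and each of the 10 genes had at least 47 counts in every library. Levels are in CPM (counts scaled to a common library size), given as mean ± SD with n = 3 libraries per group. Differences are log2 fold changes (log2FC) ± SE from edgeR's quasi-likelihood test over all 14460 genes that passed a filter on low counts, and a gene is said to rise or fall where the Benjamini-Hochberg adjusted p was under 0.05. The labels do not say whether replicates were separate cultures, so a p-value here reflects library-to-library spread alone, which may be technical. A CPM is a share of the sequenced RNA, so more RNA of a gene per cell and more cells that express it cannot be told apart. All 9 plasma cell markers tested had counts in every library (summed 1810 to 2670 CPM). The 8 markers of other blood cells summed to 3.10 to 8.81 CPM, with PPBP at 0 in all libraries. The 8 markers of epithelial cells and fibroblasts summed to 56.0 to 151 CPM, led by EPCAM (30.8 to 62.6 CPM). In the summed epithelial and fibroblast markers the ZnSO4 libraries of 3 h (56.2 to 70.8 CPM) overlapped DMSO of 3 h (64.5 to 129 CPM), and all groups of 24 h lay at 90.6 to 151 CPM. The summed plasma cell markers were lower with ZnSO4 than with DMSO at all 4 times with no overlap, for example 1810 to 1940 CPM against 2300 to 2330 CPM at 3 h, and their part in the chaperone changes was not tested.

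Some control libraries stood apart from their groups. Over 9667 genes 31 of the 39 libraries correlated best with their own group, and the 8 others included all 3 of T0 and all 3 of DMSO at 6 h. The gap was over 0.1 for 2 of them. T0 replicate 1 had a mean correlation of 0.625 with its own group and 0.734 with DMSO at 6 h, and DMSO replicate 3 of 6 h had 0.643 with its own group and 0.771 with DMSO at 1 h. DNAJB1 shows it, with 335, 341 and 129 CPM in the DMSO libraries of 6 h, the last of which lies within the range of DMSO at 1 h (181, 118 and 110 CPM). It stood at 315, 200 and 186 CPM in the T0 libraries, replicate 1 being the high one. The labelled groups were kept. Besides the DNAJB1 values given below, leaving out DMSO replicate 3 of 6 h moved HSP90AA1 at 6 h from 0.54 to 0.44 (ZnSO4 against DMSO, log2 scale) and from -0.52 to -0.62 (GSK-J4), and SERPINH1 from 0.97 to 0.85 (adjusted p = 1.3e-09) and from 0.66 to 0.53 (adjusted p = 3.9e-05). Leaving out T0 replicate 1 moved SERPINH1 in DMSO at 24 h against T0 from -1.15 to -1.01. All of these still passed.

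Per kilobase of exon (GENCODE 29 models), HSP90AB1 was the most abundant of the 10 at T0, at 1690 ± 48.0 CPM per kb. HSP90AA1 followed at 663 ± 107 and HSPD1 at 350 ± 8.11 CPM per kb. DNAJA1 stood at 208 ± 12, HSPE1 at 132 ± 2.81, STIP1 at 81.2 ± 2.54, DNAJB1 at 63.7 ± 19.2 and CHORDC1 at 25.8 ± 1.36 CPM per kb. SERPINH1, at 11.8 ± 2.29, and HSPB1, at 8.74 ± 1.86 CPM per kb, were the lowest. Neighbours in this order did not overlap beyond their SD except STIP1 and DNAJB1, and SERPINH1 and HSPB1. Together the 10 genes took 1.15 to 1.22% of all counts at T0, 1.73 to 2.06% with ZnSO4 at 3 h and 0.815 to 0.851% with GSK-J4 at 24 h. The widest range over the 39 libraries belonged to DNAJB1, 26.3-fold between the lowest library (DMSO at 24 h, 66.5 CPM) and the highest (ZnSO4 at 3 h, 1749 CPM). The narrowest was that of HSP90AB1, at 2.1-fold.

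ZnSO4 at 3 h was the group with the highest mean for 9 of the 10 genes, and HSPB1 peaked with ZnSO4 at 6 h. The lowest mean fell in GSK-J4 at 24 h for 6 genes (HSP90AA1, STIP1, CHORDC1, DNAJA1, HSPD1 and HSPE1), in GSK-J4 at 6 h for HSP90AB1 and HSPB1, in ZnSO4 at 24 h for SERPINH1 and in DMSO at 24 h for DNAJB1. Of the 12 steps between neighbouring groups in each gene's order, 2 (HSPB1) to 6 (SERPINH1) were free of overlap between libraries, so most neighbouring groups did not differ beyond their spread.

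**Figure D1:**
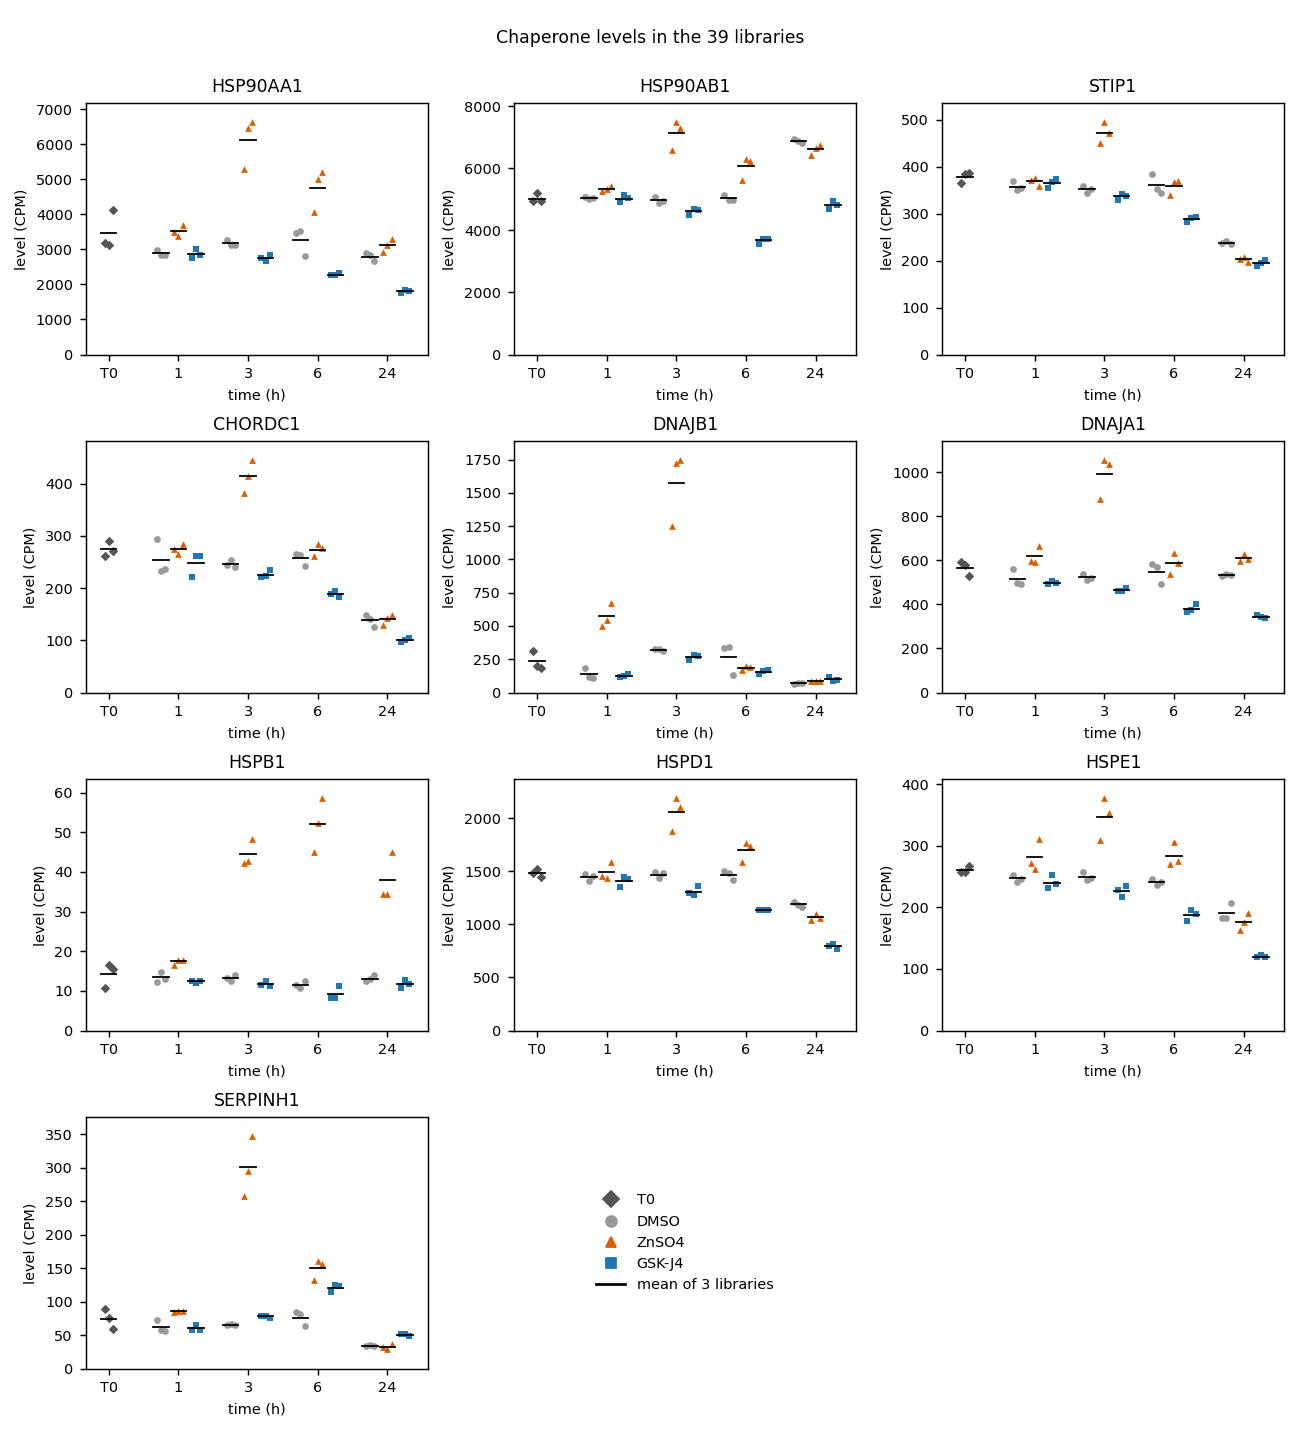
Level of each of the 10 chaperone genes (CPM, linear axis from 0) in every library against time, with points for single libraries (grey diamonds T0, grey circles DMSO, orange triangles ZnSO4, blue squares GSK-J4) and bars for the mean of 3. The ZnSO4 group of 3 h has the highest mean for 9 genes. For HSP90AB1 its lowest library (6601 CPM) lies below all 3 DMSO libraries of 24 h (6948, 6888 and 6818 CPM). It also lies below ZnSO4 libraries of 24 h at 6655 and 6737 CPM. For HSPE1 its lowest library (309 CPM) lies below ZnSO4 replicate 3 of 1 h (311 CPM). HSPB1 remained high at 6 and 24 h, and the HSP90AB1 level in DMSO was higher at 24 h than before.

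ZnSO4 raised chaperone transcripts within 1 h, all 10 by 3 h, and most were back near DMSO by 24 h. Against DMSO of the same time 4 of the 10 rose at 1 h and 0 fell, where 0.498% of all genes tested rose. That count was 1 without DMSO replicate 2 or replicate 3 and 2 without ZnSO4 replicate 3. All 10 rose at 3 h, where 6.59% of genes rose, with a median log2FC of 0.84 against 0.00 over all genes. At 6 h 6 rose and 1 fell, where 4.81% of genes rose and 4.51% fell. At 24 h 2 rose and 2 fell, where 3.98% rose and 5.58% fell, the median log2FC was -0.02, and 2 in all passed without DMSO replicate 1 or replicate 2. The change of the ZnSO4 effect itself was tested as well: it was larger at 3 h than at 1 h for 8 of the 10 (2.22% of all genes), smaller at 6 h than at 3 h for 8 (1.56%) and smaller at 24 h than at 6 h for 3 (0.297%). Without ZnSO4 replicate 1 of 6 h the last 2 counts were 5 and 5, and without ZnSO4 replicate 3 of 24 h the last was 5.

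With GSK-J4 most of the 10 genes fell, at 6 and 24 h. At 1 h 0 of the 10 passed (0.104% of all genes did), 0 had an unadjusted p under 0.05, and DESeq2 also called 0. At 3 h only HSPD1 fell, where 0.927% of genes fell, although 6 of the 10 had an unadjusted p under 0.05. That count is not stable: 8 passed when only the DMSO and GSK-J4 libraries of 3 h were fitted (7 lower and SERPINH1 higher), and 0 passed without the 24 h libraries or without any of 5 of the 6 libraries of that comparison. At 6 h 8 fell and SERPINH1 rose, where 10.5% of genes fell and 9.83% rose, with a median log2FC of -0.41 against 0.01 over all genes. At 24 h 7 fell while SERPINH1 and DNAJB1 rose, where 16.8% fell and 15.2% rose (median -0.49 against 0.02). The GSK-J4 effect at 3 h differed from that at 1 h for 0 of the 10 (0.588% of genes; 1 at an unadjusted p under 0.05; DESeq2 0). It was lower at 6 h than at 3 h for 4 (1.92%), and 7 passed without DMSO replicate 3 of 6 h but 2 without GSK-J4 replicate 1 of 6 h. Between 6 and 24 h it was higher for DNAJB1 (2.72% of genes higher) and lower for HSPE1 (3.04% lower).

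**Figure D2:**
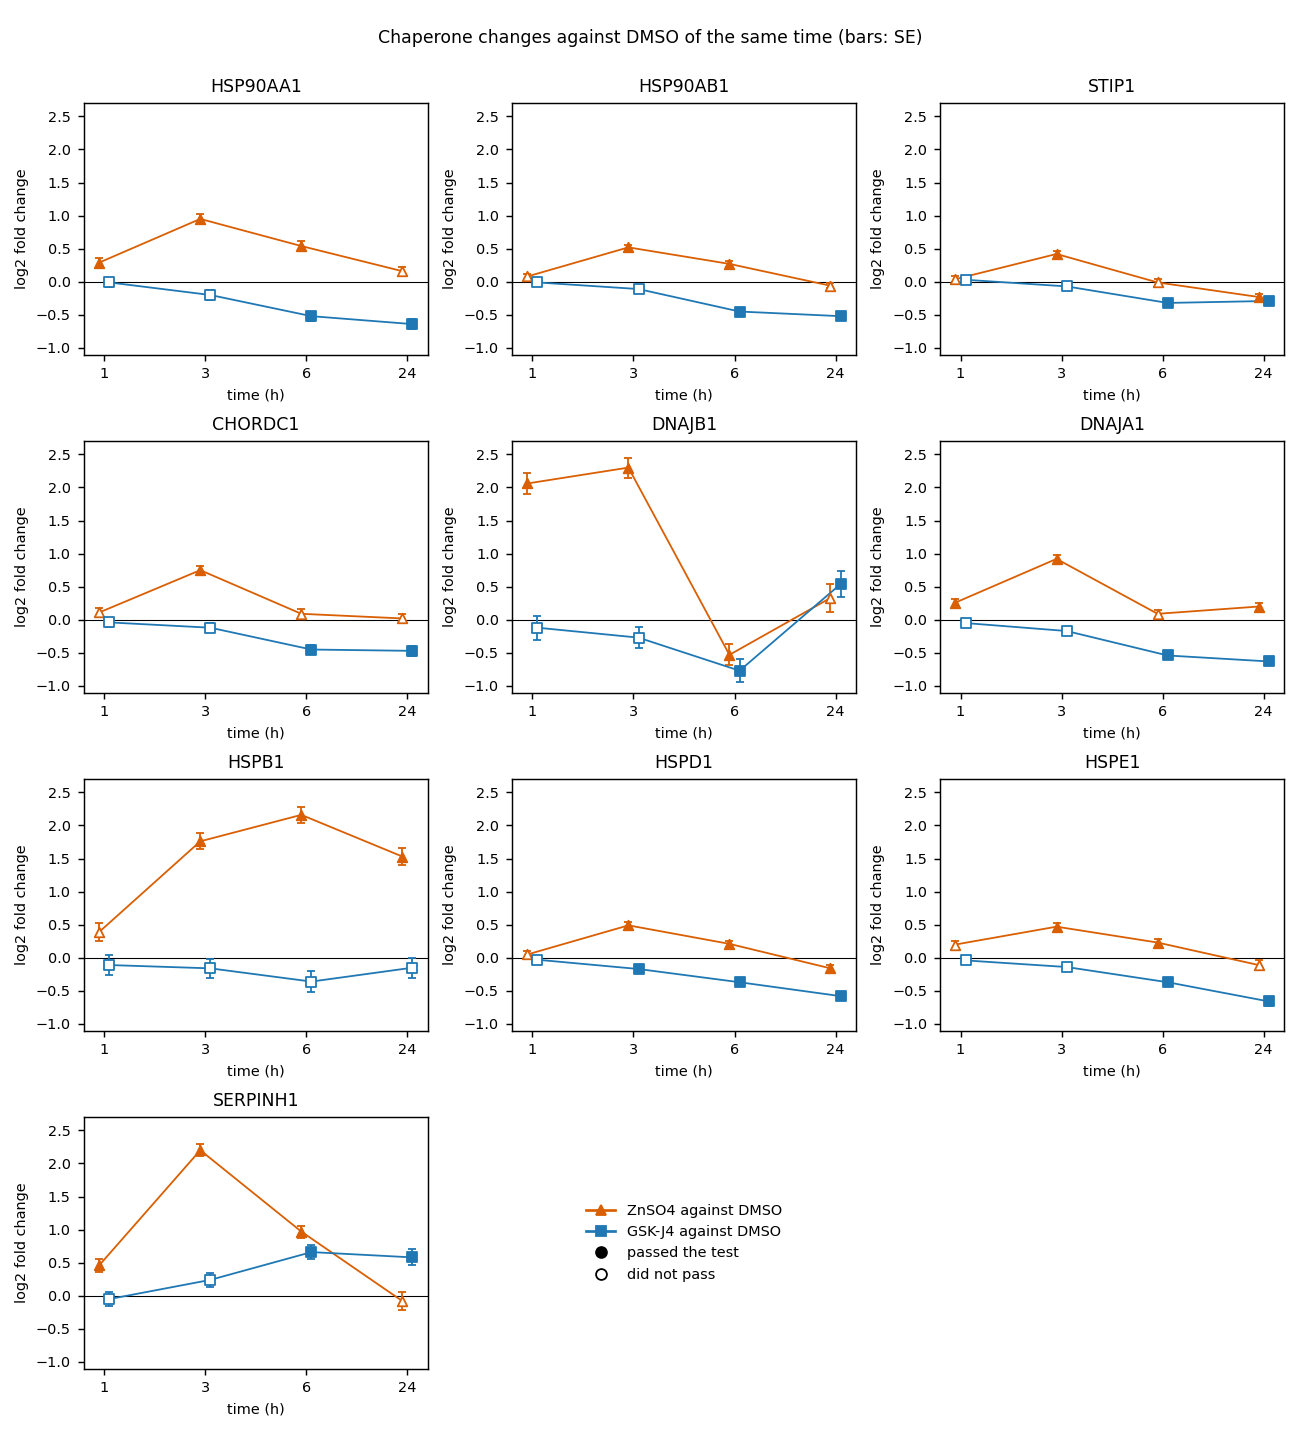
Log2 fold change against DMSO of the same time (edgeR, bars SE) of the 10 genes at 1, 3, 6 and 24 h, for ZnSO4 (orange triangles) and GSK-J4 (blue squares), filled where the adjusted p was under 0.05. The ZnSO4 curves peak at 3 h except for HSPB1, which peaks at 6 h with 2.16, and the GSK-J4 curves fall below 0 by 6 h except for SERPINH1.

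Set directly against each other, GSK-J4 gave lower levels than ZnSO4 for 5 of the 10 at 1 h, where 0.526% of all genes were lower. All 10 were lower at 3 h (6.12%) and 9 at 6 h (9.88%), DNAJB1 being the one that did not pass at 6 h (log2FC -0.24 ± 0.17). At 24 h 7 were lower (12.5%) and SERPINH1 was higher (12% of genes were), with STIP1 and DNAJB1 not passing. The ZnSO4 and GSK-J4 comparisons with DMSO share their DMSO libraries, so only these direct comparisons test the compounds against each other. The 1 h count was 3 with DESeq2, 3 without ZnSO4 replicate 3 and 3 without GSK-J4 replicate 1 or replicate 3.

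DNAJB1, an HSP40 that hands unfolded proteins to HSP70 and stimulates its ATPase, had the largest log2FC of the 10 at 1 h and at 3 h. Its level at 1 h was 500, 547 and 669 CPM with ZnSO4 and 181, 118 and 110 CPM with DMSO, so that the lowest ZnSO4 library lay well above the highest DMSO library. The log2FC was 2.06 ± 0.16 (adjusted p = 1.7e-15). At 3 h it reached 1249, 1724 and 1749 CPM with ZnSO4 against 326, 324 and 311 CPM with DMSO, a log2FC of 2.30 ± 0.15 (adjusted p = 3.2e-19). The 1 h and 3 h effects did not pass the test of their difference (0.23 ± 0.22, adjusted p = 0.75). By 6 h it was down to 167, 197 and 192 CPM with ZnSO4, within the range of the DMSO libraries of 6 h. The log2FC there was -0.53 ± 0.16 (adjusted p = 0.027), and it rested on the DMSO libraries: it was -0.87 (adjusted p = 1.1e-06) without replicate 3, and -0.34 and -0.33 without replicate 1 and replicate 2 (adjusted p = 0.29 each). The call was also lost without ZnSO4 replicate 1 or replicate 3, with DESeq2 and with only the 2 groups fitted. The fall of the ZnSO4 effect from 3 to 6 h was -2.83 ± 0.22 (adjusted p = 4.8e-15), the largest of the 10, and -3.17 without T0 replicate 1 and DMSO replicate 3 of 6 h.

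With GSK-J4, DNAJB1 stood at 119, 125 and 136 CPM at 1 h and at 246, 279 and 272 CPM at 3 h, and neither difference from DMSO passed (log2FC -0.12 ± 0.18 and -0.27 ± 0.16). At 6 h it was at 140, 163 and 168 CPM, below 2 of the 3 DMSO libraries (log2FC -0.77 ± 0.17, adjusted p = 0.00029). That value was -1.11 (adjusted p = 3.5e-10) without DMSO replicate 3, -0.58 (adjusted p = 0.017) without replicate 1 and -0.57 (adjusted p = 0.016) without replicate 2. At 24 h the sign was the other way: 114, 89.6 and 95.2 CPM with GSK-J4, all above the 66.5, 70.8 and 68.2 CPM of DMSO (log2FC 0.54 ± 0.20, adjusted p = 0.027). That rise was lost with DESeq2 (adjusted p = 0.084), without GSK-J4 replicate 1 (0.43, adjusted p = 0.15) and without any single DMSO library of 24 h. It passed more clearly with only the 2 groups fitted (adjusted p = 6.2e-09) and with only the 24 h and T0 libraries (adjusted p = 0.0015). The same held without T0 replicate 1 and DMSO replicate 3 of 6 h (adjusted p = 0.00019). The change of the effect from 6 to 24 h was 1.31 ± 0.26 (adjusted p = 0.00029). With ZnSO4 at 24 h the libraries were at 87.3, 86.1 and 84.5 CPM, which also lay above DMSO but did not pass (log2FC 0.33 ± 0.21, adjusted p = 0.37). This ZnSO4 difference passed with only the 2 groups fitted (adjusted p = 0.00093) and with no filter (adjusted p = 0.007). The pass with no filter is weak evidence, because that fit gave DNAJB1 far smaller p-values at the same log2FC. With ZnSO4 at 1 h its adjusted p was 2.1e-238 with no filter and 1.7e-15 in the main fit, both at 2.064. The ZnSO4 difference at 24 h did not pass with only the 24 h and T0 libraries fitted (adjusted p = 0.16).

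DNAJA1, the other HSP40 of the 10 and like DNAJB1 a partner of cytosolic HSP70, rose with ZnSO4 at 1, 3 and 24 h. At 1 h it was at 598, 591 and 664 CPM with ZnSO4 and 561, 497 and 494 CPM with DMSO (log2FC 0.26 ± 0.06, adjusted p = 0.0081), and the call was lost without ZnSO4 replicate 3 or without DMSO replicate 2 or replicate 3. At 3 h the ZnSO4 libraries, at 881, 1057 and 1036 CPM, stood clear of DMSO at 536, 512 and 520 CPM (log2FC 0.92 ± 0.06, adjusted p = 2e-20). At 6 h they were at 539, 633 and 587 CPM among DMSO values of 582, 571 and 495 CPM (log2FC 0.09 ± 0.06). At 24 h it was slightly higher with ZnSO4 again, at 598, 630 and 606 CPM over 529, 537 and 534 CPM (log2FC 0.20 ± 0.06, adjusted p = 0.022), a call lost without any single DMSO library of 24 h, without ZnSO4 replicate 2 and without the filter on low counts. GSK-J4 took DNAJA1 to 364, 373 and 400 CPM at 6 h (log2FC -0.54 ± 0.06, adjusted p = 9.2e-11) and 354, 343 and 337 CPM at 24 h (-0.63 ± 0.06, adjusted p = 3.5e-13). All of these GSK-J4 libraries lay below all DMSO libraries of the same time.

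Both HSP90 genes rose with ZnSO4 and fell with GSK-J4. HSP90AA1 encodes the stress-inducible cytosolic HSP90 alpha. With ZnSO4 it was at 3498, 3382 and 3691 CPM at 1 h, above DMSO at 2995, 2830 and 2849 CPM. That log2FC of 0.29 ± 0.07 (adjusted p = 0.028) lost its call with DESeq2 (adjusted p = 0.34), without the 24 h libraries and without 5 of the 6 libraries compared, in turn. At 3 h HSP90AA1 was at 5284, 6465 and 6643 CPM with ZnSO4 and 3263, 3127 and 3125 CPM with DMSO, with no overlap (log2FC 0.95 ± 0.07, adjusted p = 4.4e-17). At 6 h it was still higher, at 4076, 5006 and 5207 CPM over 3463, 3531 and 2825 CPM (log2FC 0.54 ± 0.07, adjusted p = 5e-08). At 24 h the ZnSO4 libraries, at 2940, 3124 and 3296 CPM, lay above DMSO at 2885, 2827 and 2679 CPM, but the log2FC of 0.16 ± 0.07 did not pass (adjusted p = 0.17).

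HSP90AB1 encodes HSP90 beta, the constitutive cytosolic form. It was at 6601, 7497 and 7310 CPM with ZnSO4 at 3 h and 5064, 4896 and 4952 CPM with DMSO, again with no overlap, for a log2FC of 0.52 ± 0.04 (adjusted p = 8.6e-16). At 6 h it was at 5621, 6309 and 6243 CPM over 5136, 4966 and 4977 CPM (log2FC 0.27 ± 0.04, adjusted p = 3.1e-06). At 1 h (0.08 ± 0.04) and 24 h (-0.06 ± 0.04) it did not pass. GSK-J4 lowered both HSP90 genes at 6 h, HSP90AA1 to 2267, 2261 and 2321 CPM (log2FC -0.52 ± 0.07, adjusted p = 4.2e-08) and HSP90AB1 to 3566, 3735 and 3733 CPM (-0.45 ± 0.04, adjusted p = 1.9e-13). At 24 h HSP90AA1 was at 1748, 1828 and 1825 CPM (log2FC -0.64 ± 0.07, adjusted p = 9.3e-11). HSP90AB1 was then at 4674, 4950 and 4817 CPM against 6948, 6888 and 6818 CPM in DMSO (-0.52 ± 0.04, adjusted p = 1e-15). In each of these 4 comparisons every GSK-J4 library lay below every DMSO library.

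The ratio of HSP90AA1 to HSP90AB1 reads, taken within a library and not corrected for length, followed these changes. It was 0.638 ± 0.00674 with DMSO at 3 h and 0.857 ± 0.0543 with ZnSO4, whose libraries were at 0.8, 0.862 and 0.909. At 6 h it was 0.784 ± 0.0550 with ZnSO4 and 0.651 ± 0.0745 with DMSO, the latter at 0.674, 0.711 and 0.568. All groups of 24 h were lower, at 0.406 ± 0.0117 with DMSO, 0.472 ± 0.0159 with ZnSO4 and 0.374 ± 0.00477 with GSK-J4. T0 had the widest spread, at 0.645, 0.601 and 0.837, replicate 3 being the high one.

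**Figure D3:**
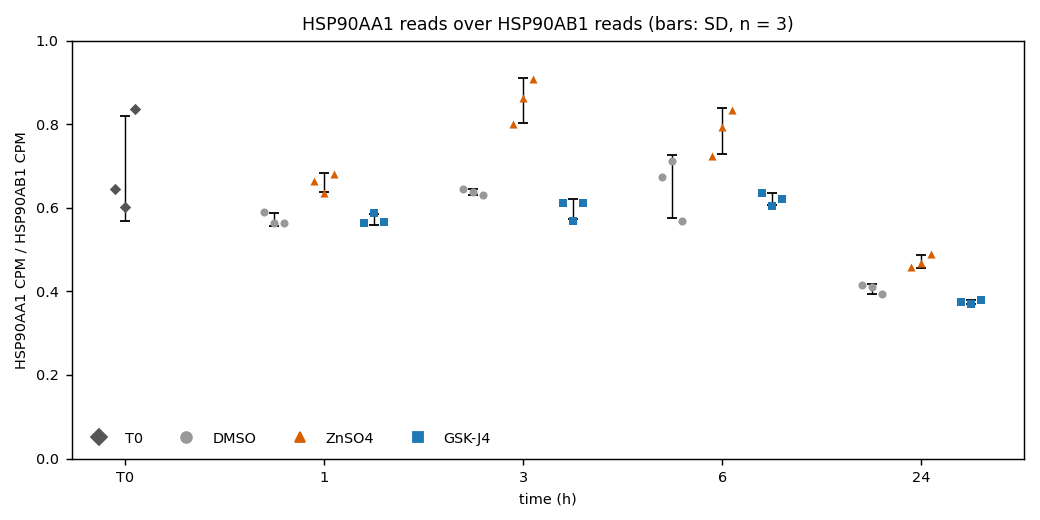
HSP90AA1 CPM divided by HSP90AB1 CPM in each library against time (points, bars mean ± SD of 3 libraries, axis from 0). The ratio was highest with ZnSO4 at 3 h (0.857) and lowest with GSK-J4 at 24 h (0.374), and all groups of 24 h lie under those of 1 to 6 h.

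STIP1 (HOP), which bridges HSP70 and HSP90, and CHORDC1, a zinc-binding HSP90 co-chaperone, both rose with ZnSO4 at 3 h. STIP1 was at 450, 496 and 473 CPM with ZnSO4 against 360, 345 and 352 CPM with DMSO (log2FC 0.42 ± 0.05, adjusted p = 1.7e-10). CHORDC1 was at 382, 414 and 446 CPM against 245, 253 and 241 CPM (log2FC 0.75 ± 0.06, adjusted p = 1.2e-14). Neither passed at 1 h or 6 h. At 24 h STIP1 was lower with ZnSO4, at 204, 207 and 198 CPM under 237, 242 and 236 CPM (log2FC -0.23 ± 0.05, adjusted p = 0.0014), while CHORDC1 overlapped DMSO (0.02 ± 0.07). With GSK-J4 both fell at 6 h, STIP1 by 0.32 and CHORDC1 by 0.45 on the log2 scale. At 24 h STIP1 was at 189, 194 and 201 CPM (log2FC -0.29 ± 0.05, adjusted p = 5.5e-06) and CHORDC1 at 96.0, 99.8 and 105 CPM (-0.47 ± 0.08, adjusted p = 9.2e-07). The highest GSK-J4 library lay below the lowest DMSO library for both genes at 6 and at 24 h.

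HSPD1 encodes HSP60 and HSPE1 encodes HSP10, the chamber and the lid of the mitochondrial chaperonin. They kept close to each other over the 13 groups (Pearson r of mean log2 CPM 0.989, the highest of the 45 pairs among the 10 genes). HSPD1 was at 1880, 2194 and 2106 CPM with ZnSO4 at 3 h and 1492, 1436 and 1481 CPM with DMSO (log2FC 0.49 ± 0.05, adjusted p = 9.1e-13). HSPE1 was at 309, 378 and 353 CPM against 258, 245 and 248 CPM (0.47 ± 0.06, adjusted p = 9.9e-09). Both remained higher at 6 h, by 0.21 ± 0.05 (HSPD1, adjusted p = 0.0014) and 0.23 ± 0.06 (HSPE1, adjusted p = 0.0081), all ZnSO4 libraries above all DMSO libraries. The HSPE1 call at 6 h was lost without ZnSO4 replicate 2 and without the filter on low counts. At 24 h HSPD1 was lower with ZnSO4, at 1046, 1097 and 1059 CPM under 1215, 1183 and 1169 CPM. That difference (log2FC -0.16 ± 0.05, adjusted p = 0.026) was lost with only the 24 h and T0 libraries fitted and without any one of 4 libraries, ZnSO4 replicate 1 or replicate 3 or DMSO replicate 1 or replicate 2, and HSPE1 did not pass (-0.11 ± 0.07).

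GSK-J4 lowered both chaperonin genes at 6 and 24 h, while a fall of HSPD1 at 3 h was not stable. HSPD1 was at 1292, 1278 and 1361 CPM at 3 h, below all DMSO libraries (log2FC -0.17 ± 0.05, adjusted p = 0.038), the only gene of the 10 to pass at that time. The 3 h call was lost without the filter on low counts and without the 24 h libraries. It was also lost without any single DMSO library of 3 h and without GSK-J4 replicate 1 or replicate 2. At 6 h HSPD1 was at 1132, 1134 and 1133 CPM (-0.37 ± 0.05, adjusted p = 3.9e-09), and at 24 h at 796, 815 and 773 CPM (-0.58 ± 0.05, adjusted p = 1.4e-15). HSPE1 was at 178, 196 and 189 CPM at 6 h against 246, 237 and 242 CPM in DMSO (log2FC -0.37 ± 0.06, adjusted p = 7.6e-06). At 24 h it was at 120, 122 and 119 CPM against 183, 183 and 207 CPM (-0.66 ± 0.07, adjusted p = 2.1e-12). Its effect was lower at 24 h than at 6 h (-0.30 ± 0.09, adjusted p = 0.039), a call lost without any one of 8 libraries and with library totals as the scale.

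HSPB1 encodes HSP27, an oligomeric small heat shock protein, and had the lowest mean of the 10 per length at T0. That order did not hold in all groups. In DMSO at 24 h HSPB1 was at 8.02 and SERPINH1 at 5.40 CPM per kb, and with ZnSO4 at 6 h they were at 31.8 and 23.9. With ZnSO4 it was at 16.6, 17.9 and 17.9 CPM at 1 h, just above DMSO at 12.3, 14.8 and 12.9 CPM, without passing (log2FC 0.39 ± 0.13, adjusted p = 0.32). It was at 42.2, 42.8 and 48.4 CPM at 3 h against 13.2, 12.5 and 13.9 CPM (log2FC 1.76 ± 0.12, adjusted p = 8e-19). It was the one gene of the 10 with a larger log2FC at 6 h than at 3 h, at 44.9, 52.4 and 58.7 CPM against 11.6, 10.7 and 12.5 CPM (2.16 ± 0.12, adjusted p = 1.7e-22), although the change from 3 to 6 h was not itself called (0.41 ± 0.18, adjusted p = 0.33). At 24 h it was still at 34.5, 34.4 and 44.9 CPM over 12.5, 12.9 and 13.9 CPM (1.53 ± 0.13, adjusted p = 4.3e-15). The lowest ZnSO4 library was above the highest DMSO library at all 4 times. GSK-J4 libraries were at 8.30, 8.09 and 11.2 CPM at 6 h and 10.8, 12.8 and 11.8 CPM at 24 h, and HSPB1 did not pass with GSK-J4 at any time (lowest adjusted p 0.12, at 6 h; 0.048 without GSK-J4 replicate 3 of 6 h). Of 7 other small heat shock protein genes matched, 0 passed the filter on low counts.

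SERPINH1 encodes HSP47, the collagen chaperone of the endoplasmic reticulum, and was the one gene of the 10 that rose with both compounds at the same time, at 6 h. With ZnSO4 it was at 85.2, 85.7 and 85.8 CPM at 1 h against 72.0, 57.1 and 56.7 CPM in DMSO (log2FC 0.46 ± 0.10, adjusted p = 0.0043), a call lost without DMSO replicate 2 or replicate 3. At 3 h it was at 258, 295 and 348 CPM against 64.8, 67.3 and 64.9 CPM (2.20 ± 0.09, adjusted p = 1.7e-29). At 6 h it was at 132, 161 and 157 CPM against 85.0, 81.1 and 63.0 CPM (0.97 ± 0.09, adjusted p = 2.6e-12), and at 24 h at 31.5, 29 and 36.6 CPM, among the DMSO values of 33.5, 34.7 and 33.5 CPM (-0.08 ± 0.13).

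With GSK-J4 SERPINH1 was the one gene of the 10 that rose at 6 h, when the other 9 had log2FC values below 0. At 3 h it was at 78.2, 79.1 and 76.1 CPM, above all DMSO libraries but without passing (log2FC 0.24 ± 0.10, adjusted p = 0.23). It rose at 6 h, to 114, 125 and 123 CPM (0.66 ± 0.10, adjusted p = 1.5e-07), and was at 51.0, 52.3 and 48.6 CPM at 24 h (0.58 ± 0.12, adjusted p = 8.6e-05). Against ZnSO4 it was lower at 6 h (-0.31 ± 0.09, adjusted p = 0.0087), a call lost without ZnSO4 replicate 2 or replicate 3 or GSK-J4 replicate 1, and higher at 24 h (0.65 ± 0.13, adjusted p = 8.3e-05). COL1A1, a collagen gene among the fibroblast markers, was at 3.60 to 32.7 CPM over the 39 libraries. The summed epithelial and fibroblast markers were at 114 to 151 CPM with GSK-J4 at 24 h and 90.6 to 131 CPM with DMSO, and at 62.5 to 77.1 and 71.4 to 77.4 CPM at 6 h. Their part in the SERPINH1 values was not tested.

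In DMSO few of the 10 genes differed from T0 up to 6 h, and most were lower at 24 h. At 1 h DNAJB1 was lower than at T0 (0.00692% of all genes were lower), with a log2FC of -0.78 ± 0.17 (adjusted p = 0.048). Without T0 replicate 1 it was -0.49 and the call was lost (adjusted p = 0.21). It was also lost with library totals, RLE factors or DESeq2 (adjusted p = 0.061, 0.052 and 0.21), with only the 2 groups fitted and without the 24 h libraries. With T0 replicate 1 and DMSO replicate 3 of 6 h both left out it passed (-0.49, adjusted p = 0.027). The count of genes was 0 without DMSO replicate 2 or replicate 3 and 2 without T0 replicate 2. At 3 h 0 of the 10 passed (0.0968% of genes did; 4 at an unadjusted p under 0.05; DESeq2 0), or 1 without T0 replicate 1. At 6 h 0 passed (0.0138%; 0 at an unadjusted p under 0.05; DESeq2 0), 1 without DMSO replicate 3, and 2 without this library and T0 replicate 1. At 24 h 7 were lower and HSP90AB1 was higher, where 32.7% of genes were lower and 30.5% higher.

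DNAJB1 dropped furthest, from 315, 200 and 186 CPM at T0 to 66.5, 70.8 and 68.2 CPM at 24 h (log2FC -1.78 ± 0.18, adjusted p = 1.9e-13; -1.50 without T0 replicate 1). SERPINH1 went from 88.3, 75.1 and 59.5 CPM to 33.5, 34.7 and 33.5 CPM (-1.15 ± 0.11, adjusted p = 2.3e-14), and CHORDC1 from 262, 290 and 272 CPM to 149, 141 and 126 CPM (-0.98 ± 0.07, adjusted p = 4.8e-20). STIP1 (log2FC -0.67 ± 0.05), HSPE1 (-0.45 ± 0.06) and HSPD1 (-0.32 ± 0.05) were lower too, each with no overlap. HSP90AA1 was lower by -0.31 ± 0.07 (adjusted p = 0.00011), and by -0.17 without T0 replicate 3, whose 4128 CPM stood over 3193 and 3118 CPM in the other T0 libraries. HSP90AB1 went up, from 4952, 5187 and 4929 CPM to 6948, 6888 and 6818 CPM (0.45 ± 0.04, adjusted p = 8.5e-15), all 24 h libraries above all T0 libraries. DNAJA1 and HSPB1 did not pass (-0.09 ± 0.06 and -0.12 ± 0.14). Scaled by library totals alone, the median over all genes moved to -0.24 in this comparison, HSP90AB1 to 0.23, HSPD1 to -0.54, HSP90AA1 to -0.54 and HSPE1 to -0.67. Transcripts of the mitochondrial genome made up 4.376 to 5.542% of each 24 h library and 2.921 to 3.902% of earlier ones, and their part in these changes was not tested.

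**Figure D4:**
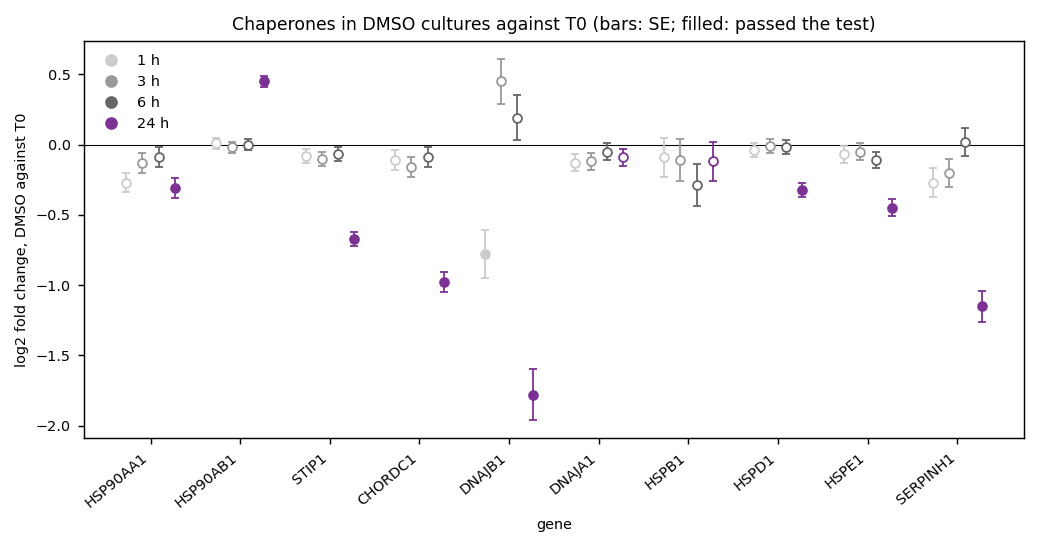
Log2 fold change of DMSO against T0 (edgeR, bars SE) for the 10 genes at 1, 3, 6 and 24 h, filled where the adjusted p was under 0.05. At 24 h 7 genes were called below 0, DNAJB1 lowest at -1.78, and HSP90AB1 was called above at 0.45, while at 3 and 6 h none was called. DNAJA1 (-0.09) and HSPB1 (-0.12) lie below 0 at 24 h without passing.

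The lists of related genes are read against the shares of all genes tested, which were 6.59% higher and 4.16% lower with ZnSO4 at 3 h and 15.2% higher and 16.8% lower with GSK-J4 at 24 h. Of 24 other HSP90 family and co-chaperone genes 6 rose and 1 fell with ZnSO4 at 3 h (median log2FC 0.01), led by the HSP90 co-chaperones FKBP4 (0.55 ± 0.06, adjusted p = 3.8e-12), AHSA1 (0.46 ± 0.05, adjusted p = 8e-10) and CACYBP (0.44 ± 0.05, adjusted p = 2.9e-09). With GSK-J4 at 24 h 12 of the 24 fell and 3 rose (median -0.18), AHSA1 by 0.62 on the log2 scale. Of 37 other HSP40 genes tested 5 rose with ZnSO4 at 3 h and 0 fell (median -0.03), DNAJA4 from 36.9 to 183 CPM (2.32 ± 0.11, adjusted p = 1e-25), DNAJB4 from 23.4 to 83.5 CPM (1.84 ± 0.14, adjusted p = 1.6e-17) and DNAJB6 with 0.69 ± 0.06 (adjusted p = 1e-14). With GSK-J4 at 24 h 7 of the 37 rose and 7 fell (median 0.02), close to the shares of all genes in both directions. DNAJB9, an HSP40 of the endoplasmic reticulum, rose (1.02 ± 0.07, adjusted p = 1.1e-17). In a list of 14 genes of the cytosolic chaperonin and its partners 3 rose with ZnSO4 at 3 h (median 0.02), TCP1 most (0.21 ± 0.04, adjusted p = 0.00024). With GSK-J4 at 24 h 10 of these 14 fell and 0 rose (median -0.36), CCT2 by 0.58 and CCT5 by 0.54 on the log2 scale. Of 15 genes of mitochondrial proteostasis, which work beside HSPD1, only LONP1, a protease gene, rose with ZnSO4 at 3 h (0.18 ± 0.05, adjusted p = 0.02), while with GSK-J4 at 24 h 2 rose and 5 fell, GRPEL1 by 0.58.

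Of 14 tested partners of SERPINH1 in collagen folding 3 rose and 0 fell with ZnSO4 at 3 h (median 0.04), where 6.59% of all genes rose. They were the collagen prolyl hydroxylase genes P4HA2 (log2FC 1.60 ± 0.18, adjusted p = 9.8e-11) and P4HA1 (0.45 ± 0.08, adjusted p = 3.7e-05) and the lysyl hydroxylase gene PLOD1 (0.60 ± 0.06, adjusted p = 3.6e-11). With GSK-J4, where SERPINH1 rose at 6 and 24 h, 0 of the 14 partners rose and 1 fell at 6 h (median -0.08). All genes rose in 9.83% and fell in 10.5% there. At 24 h 2 partners rose and 2 fell (median -0.03), where 15.2% of all genes rose and 16.8% fell. PLOD1 was among those that fell (-0.30 ± 0.07, adjusted p = 0.00027). The heat shock factor genes HSF1, HSF2 and HSF4 did not pass with ZnSO4 at 3 h (adjusted p = 0.52, 0.79 and 0.46). HSF1 was at 156 CPM with ZnSO4 and 164 CPM with DMSO (-0.07 ± 0.06), and was lower with GSK-J4 at 24 h (-0.31 ± 0.06, adjusted p = 1.3e-05). Among 17 tested genes of the HSP70, HSP110 and BAG families 9 rose and 2 fell with ZnSO4 at 3 h (median 0.26). Of all genes 6.59% rose and 4.16% fell. With GSK-J4 at 24 h 2 rose and 10 fell (median -0.36), where 15.2% rose and 16.8% fell. The 3 of this list with the smallest p for ZnSO4 at 3 h were HSPA6, BAG3 and HSPH1. HSPA6 went from 2.66 CPM with DMSO to 116 CPM (log2FC 5.39 ± 0.25, adjusted p = 8.9e-27). BAG3 rose by 2.69 ± 0.13 (adjusted p = 1.9e-25) and HSPH1 by 1.37 ± 0.07 (adjusted p = 7e-24). HSPA8, the constitutive HSP70, had ZnSO4 log2FC values of 0.50 ± 0.09, 0.83 ± 0.09, -0.61 ± 0.09 and 0.36 ± 0.09 at 1, 3, 6 and 24 h, each passing. The inducible HSP70 genes HSPA1A and HSPA1B had 1 and 88 counts in all 39 libraries together. Of the HSPA1B counts 33 were in the ZnSO4 libraries of 3 h and 8 in the DMSO libraries of 3 h. HSPA1A and HSPA1B are near-identical copies, how reads that match both were counted is not stated, and they were not tested.

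Over the 13 groups the patterns of the 10 genes had a median Pearson r of 0.717 between pairs, a description of 13 means that share their libraries. HSP90AB1 stood apart from STIP1 (-0.004), SERPINH1 (-0.001) and CHORDC1 (0.103). Among 9547 other genes the one most alike in pattern was HSP90AA2P for HSP90AA1 (r = 0.990), HSP90AB3P for HSP90AB1 (0.990) and HSPD1P1 for HSPD1 (0.985), all copies of the gene itself. The closest gene outside such copies was GPN1 for HSP90AB1 (0.939) and HSPA4, an HSP110 chaperone gene, for HSPD1 (0.983), and all 3 closest rows of HSP90AA1 were copies. For STIP1 the closest was MRPL18, a mitochondrial ribosomal protein gene (0.989), for CHORDC1 BAG2 (0.988) and for HSPE1 the co-chaperone gene PTGES3 (0.975). It was ST13, a co-chaperone gene, for DNAJA1 (0.952), ANKRD42 for SERPINH1 (0.948), P4HA2 for HSPB1 (0.943) and DGKE for DNAJB1 (0.882).

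Reads may be shared with processed copies of these genes. Rows of pseudogenes held 6.56% as many counts as HSPD1, 5.82% as HSPE1, 3.26% as HSP90AA1, 3.21% as HSP90AB1 and 3.11% as CHORDC1, and 0.0158 to 1.19% for the other 5. The levels of HSPD1, HSPE1, HSP90AA1, HSP90AB1 and CHORDC1 carry that uncertainty. Copies had the most similar patterns for HSP90AA1, HSP90AB1 and HSPD1, but that search left out genes at low levels, so weaker copies could not appear. A read-through row joining HSPE1 with MOB4 held 14 counts. The sources used here do not give the counting tool or its strand setting, so reads from overlapping antisense genes cannot be told apart.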

How the data were processed

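RNA-seq counts per gene, deposited by the authors as 1 table, were used as whole-number counts; HISAT2 2.1.0 and build hg19 are named in the submitters' processing notes, and the counting tool is not given in the sources used here. Symbols came from a name table (51996 identifiers) and GENCODE 29 (342). edgeR 4.0.16 (R 4.3.3; TMM; filterByExpr, minimum count 10) was fitted to all 39 libraries with 1 coefficient per group and quasi-likelihood tests, Benjamini-Hochberg adjusted over 14460 genes. The SE is the log2 fold change divided by the square root of F. The fit was tested on simulated data. DESeq2 1.42.0, RLE factors, library totals, no filter, fewer groups and left-out libraries were the alternatives. Replicate pairs differed by 1.205 to 7.323 chi-square per gene, so none was merged. All 10 members are described. Other genes named are, per list, among the 3 with the smallest p for ZnSO4 at 3 h or GSK-J4 at 24 h, the 3 most alike in pattern to each member, and HSPA1A, HSPA1B and HSPA8. The members and lists were chosen with earlier results of these data known. Promoters are RefSeq's (GRCh38.p14), used for sequence only.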

Additional observations from a re-analysis of the deposited data

Results flagged for a closer look

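The sizes of the ZnSO4 and GSK-J4 effects were compared between neighbouring times, as differences of log2 fold changes in the model over all 14460 genes (edgeR, adjusted p under 0.05). The effects compared share no libraries, but those of neighbouring pairs of times do.

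From 1 to 3 h the ZnSO4 effect grew for 8 of the 10 genes. The difference was 1.74 for SERPINH1, 1.36 for HSPB1, 0.67 for HSP90AA1, 0.67 for DNAJA1, 0.64 for CHORDC1, 0.44 for HSP90AB1, 0.43 for HSPD1 and 0.38 for STIP1. From 3 to 6 h it shrank for 8 genes. The difference was -2.83 for DNAJB1, -1.23 for SERPINH1, -0.83 for DNAJA1, -0.66 for CHORDC1, -0.43 for STIP1, -0.41 for HSP90AA1, -0.28 for HSPD1 and -0.25 for HSP90AB1. HSP90AB1, HSPD1 and HSP90AA1 lost that call without ZnSO4 replicate 1 of 6 h. From 6 to 24 h the ZnSO4 effect was lower for SERPINH1 (-1.05), HSPD1 (-0.36) and HSP90AB1 (-0.33).

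For GSK-J4 the effect at 6 h was lower than that at 3 h for DNAJA1 (-0.37), HSP90AB1 (-0.34), CHORDC1 (-0.32) and STIP1 (-0.25). The CHORDC1 call was lost under 8 of 19 alternatives, library totals among them, and the STIP1 call under 4 of 19. The calls of DNAJA1 and HSP90AB1 were lost under 0. Between 6 and 24 h the GSK-J4 effect was higher for DNAJB1 (1.31, or 1.65 without T0 replicate 1 and DMSO replicate 3 of 6 h) and lower for HSPE1 (-0.30).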

How the results depend on the processing

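Of 110 member differences that passed, 91 passed under every alternative run, 19 were lost under at least 1, and 0 changed sign. Of 36 listed that did not pass, 10 passed under at least 1 alternative. With only the groups compared fitted, 8 genes passed for GSK-J4 at 3 h, 8 for the GSK-J4 change from 3 to 6 h, 1 for that from 1 to 3 h and 0 for DMSO against T0 at 1 h. Without the 24 h libraries 0 passed for GSK-J4 at 3 h and 0 for DMSO against T0 at 1 h. For the latter, RLE factors, library totals and DESeq2 gave 0 each, and no filter gave 2. No filter gave 1 for DMSO against T0 at 3 h and 5 for the ZnSO4 change from 6 to 24 h. Calls gained with no filter are weak evidence. For DMSO against T0 at 1 h DNAJB1 had an adjusted p of 2.9e-30 with no filter and 0.048 in the main fit. Its log2FC was nearly the same (-0.777 and -0.776). DESeq2 gave 3 for GSK-J4 against ZnSO4 at 1 h, and library totals 1 for the GSK-J4 change from 6 to 24 h. Leaving out T0 replicate 1 and DMSO replicate 3 of 6 h, an alternative chosen after seeing the data, gave 2, 1 and 2 for DMSO against T0 at 1, 3 and 6 h and 7 for the GSK-J4 change from 3 to 6 h. Apart from smaller groups and fewer genes by construction, the cause was not tested.

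Leaving out 1 library at a time gave 1 to 4 genes for ZnSO4 at 1 h, 2 to 3 at 24 h, 0 to 1 for GSK-J4 at 3 h and 3 to 5 for GSK-J4 against ZnSO4 at 1 h. It gave 0 to 2, 0 to 1 and 0 to 1 for DMSO against T0 at 1, 3 and 6 h. For the changes between times it gave 5 to 9 (ZnSO4, 3 to 6 h), 3 to 5 (ZnSO4, 6 to 24 h), 2 to 7 (GSK-J4, 3 to 6 h) and 1 to 2 (GSK-J4, 6 to 24 h).

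Signs turned only among values near 0 that did not pass. STIP1 with ZnSO4 at 6 h was 0.002 with library totals and -0.044 to 0.038 over left-out libraries. CHORDC1 with ZnSO4 at 24 h was -0.01 with no filter and -0.039 to 0.07 over left-out libraries, and SERPINH1 -0.174 to 0.006. For GSK-J4 at 1 h the ranges were -0.045 to 0.019 (HSP90AA1), -0.022 to 0.011 (HSP90AB1), -0.101 to 0.083 (CHORDC1), -0.237 to 0.155 (DNAJB1), -0.084 to 0.012 (DNAJA1) and -0.114 to 0.087 (SERPINH1). No paired analysis was possible because the labels give no replicate number shared between groups. Depth limits HSPB1 most, with 47 to 392 counts per library.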

Other observations

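In some groups 1 library was the lowest for most of the 10 chaperone genes. ZnSO4 replicate 1 of 3 h was the lowest of its 3 libraries for 10 of the 10 genes, ZnSO4 replicate 1 of 6 h for 10 and GSK-J4 replicate 1 of 1 h for 9. In the other groups the library most often lowest was so for 5 to 7 genes. For GSK-J4 replicate 1 of 1 h the gap was small, as in HSP90AA1 (2763 CPM against 3015 and 2841 CPM). How often these libraries were the lowest over all genes was not counted, so a shift of the whole library cannot be told apart. HSP90AA1 and HSP90AB1 together made up 68.2% of the counts of the 10 genes with ZnSO4 at 3 h, 75.1% with ZnSO4 at 6 h, 80.1% with DMSO at 24 h and 72.1% at T0.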
